A study of Mus musculus with 6 samples.

Results

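Intergenic p300 peaks that carried H3K4me3 were the p300 peaks of wild type B16 cells that overlapped an H3K4me3 peak of the same cells by at least 1 bp and lay more than 1 kb outside every protein-coding gene span of RefSeq on the mouse build GRCm38 (mm10), on chromosomes 1 to 19, X and Y. There were 1358 of them among 6512 p300 peaks, which is 20.9% (exact 95% binomial interval 19.9 to 21.9). The members were chosen by the positions of the deposited p300 and H3K4me3 peaks and by the annotation, so their number, position and overlap are given as a description with no test. They are called intergenic H3K4me3-bearing p300 peaks, or members, in what follows.

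The study asked what thymine DNA glycosylase (TDG), a DNA repair enzyme, does in cancer cells that lack p53. B16 is a mouse melanoma cell line, the labels give the genotype WT, and both libraries used here came from these cells by CUT&Tag, in which an antibody guides a transposase to cut and tag nearby DNA in cells held on beads. One antibody was against p300 and the other against H3K4me3, with 1 µg of antibody, 18 PCR cycles and reads of 150 bp. Each antibody had 1 library, so there is no replicate and nothing was tested. Every interval treats the peaks or genes counted as independent draws and holds no variation between libraries. The 4 H3K9me3 libraries, titled as wild type, Tdg knockout, Trp53 knockout and double knockout, were not analysed here, and no genotypes were compared.

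p300 is a histone acetyltransferase that transcription factors bring to active enhancers and promoters. H3K4me3, trimethylation of lysine 4 on histone H3, is the standard mark of active transcription start sites, while enhancers far from genes are usually richer in the monomethylated form. Away from protein-coding genes, H3K4me3 also marks the starts of long noncoding RNAs (lncRNAs), of small RNA genes and of some strong enhancers. A pigment cell line such as B16 is known to use distal elements around genes of the melanocyte programme.

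The promoter windows of 5 lncRNAs at members are printed first because they show the range of start sites found there: 2 host genes of small nucleolar RNAs, a microRNA host gene, the lncRNA start under the member with the highest p300 value of those 5, and a start made of a repeated unit. Sequences are from RefSeq, GRCm38.p6, read 5′ to 3′ from 250 bases before to 50 after the annotated start. Capitals mark the E-box CACGTG, the AP-1 site TGANTCA, the CCAAT box, the TATAAA box or the GC box GGGCGG, searched on either strand.
Snhg15, chr11:6528711-6529010, minus strand: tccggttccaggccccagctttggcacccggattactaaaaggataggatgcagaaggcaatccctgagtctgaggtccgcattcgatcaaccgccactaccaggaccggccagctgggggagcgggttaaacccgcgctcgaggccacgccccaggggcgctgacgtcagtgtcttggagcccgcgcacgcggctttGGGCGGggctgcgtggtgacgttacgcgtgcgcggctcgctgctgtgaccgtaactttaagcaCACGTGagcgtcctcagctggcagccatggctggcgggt
Snhg17, chr2:158361473-158361772, minus strand: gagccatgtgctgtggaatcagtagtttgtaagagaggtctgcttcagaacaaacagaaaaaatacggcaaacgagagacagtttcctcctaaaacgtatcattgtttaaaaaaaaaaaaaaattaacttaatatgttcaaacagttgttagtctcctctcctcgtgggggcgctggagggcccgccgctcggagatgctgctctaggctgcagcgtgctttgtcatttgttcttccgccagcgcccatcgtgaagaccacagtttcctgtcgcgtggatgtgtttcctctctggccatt
Mir22hg, chr11:75461289-75461588, plus strand: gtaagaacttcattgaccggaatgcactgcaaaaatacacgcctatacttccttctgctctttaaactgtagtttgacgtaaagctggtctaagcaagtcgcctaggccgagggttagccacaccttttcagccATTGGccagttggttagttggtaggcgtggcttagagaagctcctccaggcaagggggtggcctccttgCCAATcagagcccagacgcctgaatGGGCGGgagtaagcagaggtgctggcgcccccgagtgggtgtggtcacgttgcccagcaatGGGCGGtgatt
1700113A16Rik, chr3:88177736-88178035, minus strand: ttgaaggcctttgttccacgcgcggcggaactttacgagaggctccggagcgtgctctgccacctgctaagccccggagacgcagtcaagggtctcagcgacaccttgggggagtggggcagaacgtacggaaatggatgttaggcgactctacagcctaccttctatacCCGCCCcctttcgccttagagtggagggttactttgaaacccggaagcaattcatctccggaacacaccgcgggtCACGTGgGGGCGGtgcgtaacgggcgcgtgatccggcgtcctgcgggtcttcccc
Gm40237, chr4:118547156-118547455, plus strand: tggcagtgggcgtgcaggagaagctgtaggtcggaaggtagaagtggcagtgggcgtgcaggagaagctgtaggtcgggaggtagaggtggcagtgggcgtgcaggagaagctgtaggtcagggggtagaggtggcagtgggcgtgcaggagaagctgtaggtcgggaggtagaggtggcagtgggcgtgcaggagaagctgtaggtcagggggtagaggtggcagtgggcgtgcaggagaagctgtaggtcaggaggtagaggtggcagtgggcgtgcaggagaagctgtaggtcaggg

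The Snhg15 window held 1 E-box and 1 GC box, with 29 CpG dinucleotides, and the 1700113A16Rik window held 1 E-box, 2 GC boxes and 28 CpG dinucleotides. The Mir22hg window held 2 CCAAT boxes and 2 GC boxes, and the Snhg17 window held none of the 5 motifs, while a second annotated Snhg17 start, 13 bp further along and also under the member, gives a window with 1 GC box. The Gm40237 window held none either, and 84% of its 20-base words occurred more than once within the window, up to 7 times. The other 4 windows held no repeated 20-base word.

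Across the 75 promoter windows whose lncRNA start lay inside a member, the GC box stood in 48% and the E-box in 14.7%, beside 16.8% and 6.03% of 9533 lncRNA windows and 35.9% and 7.24% of all 27025 windows of the table. The AP-1 site stood in 13.3% of them, against 9.49% of lncRNA windows and 7.93% of all. CCAAT stood in 37.3%, 35.9% and 37.9%, and TATAAA in 5.33%, 15.7% and 14.2%, in the same order. The median ratio of observed to expected CpG was 0.492 at members, 0.248 over lncRNA windows and 0.389 over all. The starts under members were thus richer in CpG than the table's lncRNA starts, but not than its protein-coding starts. The 17492 protein-coding windows had a median ratio of 0.576, the GC box in 46.3% and the E-box in 7.9%. Windows in which at least 10% of 20-base words were repeated made up 3 of the 75 (4%), against 1.49% of lncRNA windows. A match is a string of letters in a window and no evidence of binding.

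Mature microRNAs of 4 genes within 1 kb of a member are printed with the seed, bases 2 to 8, in capitals, because 2 of them share a seed and come from 1 gene cluster beside 1 member.
mmu-miR-132-3p: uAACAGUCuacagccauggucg
mmu-miR-212-3p: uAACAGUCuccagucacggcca
mmu-miR-22-3p: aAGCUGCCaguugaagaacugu
mmu-miR-210-3p: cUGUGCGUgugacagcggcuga

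miR-132-3p and miR-212-3p have the seed AACAGUC in common and are both known from neurons. Their genes lay within 1 kb of 1 member, 2432 bp from Hic1, with 31 p300 reads and 192 H3K4me3 reads at the summit. The member at Mir22, the gene of the widely expressed miR-22, was 2950 bp wide and had 192 p300 and 232 H3K4me3 reads. Mir210, whose product is the hypoxia-induced miR-210, lay near a member with 38 p300 and 101 H3K4me3 reads, 2884 bp from Rassf7. In all, 6 members (0.442%) had a microRNA gene within 1 kb, beside 41 of all p300 peaks (0.63%), so such genes were not more frequent at members. The remaining 3 were at Mir7671 near Irf1, a transcription factor of the interferon response (164 p300 and 295 H3K4me3 reads), at Mir7688 near Lta4h (103 and 75) and at Mir101c (144 and 261).

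Signal strength is given in summit reads, which are the reads piled up at the highest point of a peak. They were solved from the authors' deposited fold and p-value. A whole number of reads gave back the deposited −log10 p within tolerance at 6512 of 6512 p300 peaks and 27017 of 27019 H3K4me3 peaks. The tolerance was 0.002, but wider at the peaks of highest −log10 p. For those peaks a whole number is a weak check or none, and the reads are approximate. The median was 39 reads for p300, with a lowest value of 14, and 80 for H3K4me3, with a lowest value of 15. Read totals per library are unknown here, so p300 and H3K4me3 reads are not on 1 scale, and their ratio is read only between classes of peak.

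Intergenic H3K4me3-bearing peaks had somewhat more p300 reads and far fewer H3K4me3 reads at the summit than peaks at gene ends. The median p300 summit was 44 reads at members (95% order-statistic interval 42 to 46), 37 (36 to 38) at the 2386 H3K4me3-bearing p300 peaks no more than 1 kb from where a protein-coding gene begins or ends (gene ends), 42 (40 to 43) at the 1824 inside genes, and 33 (31 to 36) at the 419 intergenic p300 peaks without H3K4me3. The H3K4me3 summit had 78 reads (74 to 81) at members, 168 (165 to 170) at gene ends and 84.5 (81 to 88) inside genes. Members therefore stood close to the peaks inside genes in H3K4me3 reads and apart from those at gene ends, a difference that was not tested. In fold over background the classes differed less. The median p300 fold was 5.9 (5.77 to 6.02) at members and 5.78 (5.7 to 5.84) at gene ends. For H3K4me3 it was 6.5 (6.37 to 6.62) and 7.12 (7 to 7.22). The classes overlapped widely, since the quartiles of p300 reads ran from 30 to 72 at members and from 28 to 53 at gene ends.

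**Figure D1:**
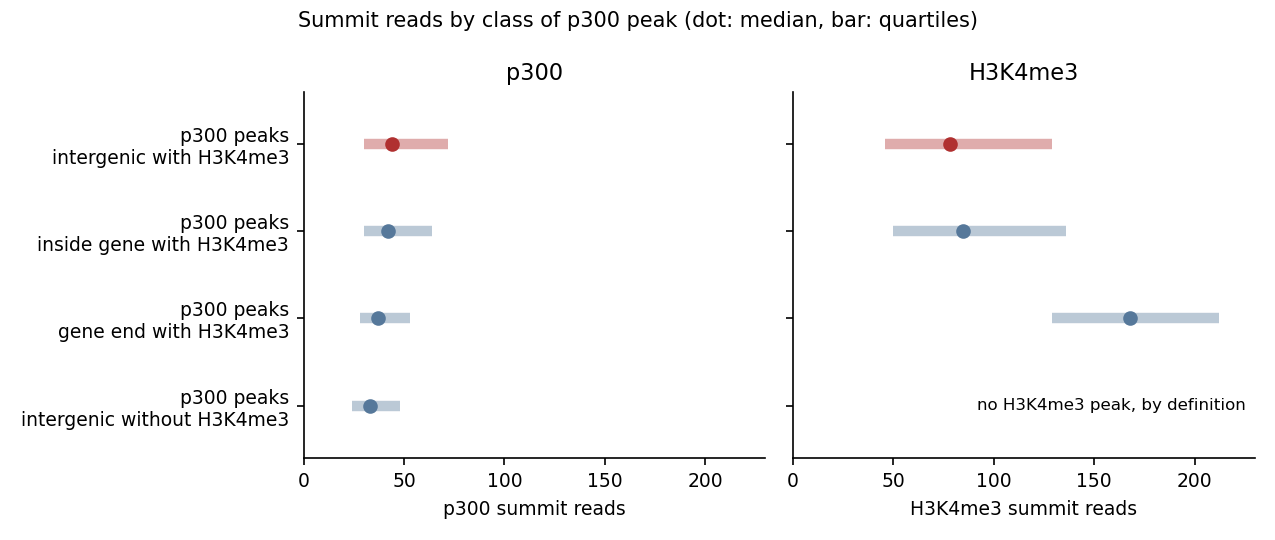
Summit reads (x axes, reads) for p300 (left) and H3K4me3 (right) in 4 classes of p300 peak, with the median as a dot and the quartiles as a bar. The H3K4me3 median was 78 reads at members against 168 at gene ends, while the p300 median was 44 against 37.

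The balance of the 2 signals followed the same order. The median ratio of p300 to H3K4me3 summit reads was 0.613 (0.588 to 0.646) at members, 0.552 (0.523 to 0.591) inside genes and 0.233 (0.227 to 0.238) at gene ends. The number of p300 reads was above that of H3K4me3 reads, an arbitrary limit since depths are unknown, at 357 of 1358 members, 26.3% (24 to 28.7), at 23.2% of peaks inside genes and at 2.18% of those at gene ends. The share at members was thus far above that at gene ends, while its interval overlapped that of 21.3 to 25.2 inside genes. Across members, p300 and H3K4me3 reads ran together weakly (Spearman rho 0.32 over 1358 members, which share the same 2 libraries), and −log10 q of the 2 lists hardly at all (0.13). The same values were 0.24 and 0.12 at gene ends, and 0.24 and 0.07 inside genes.

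**Figure D2:**
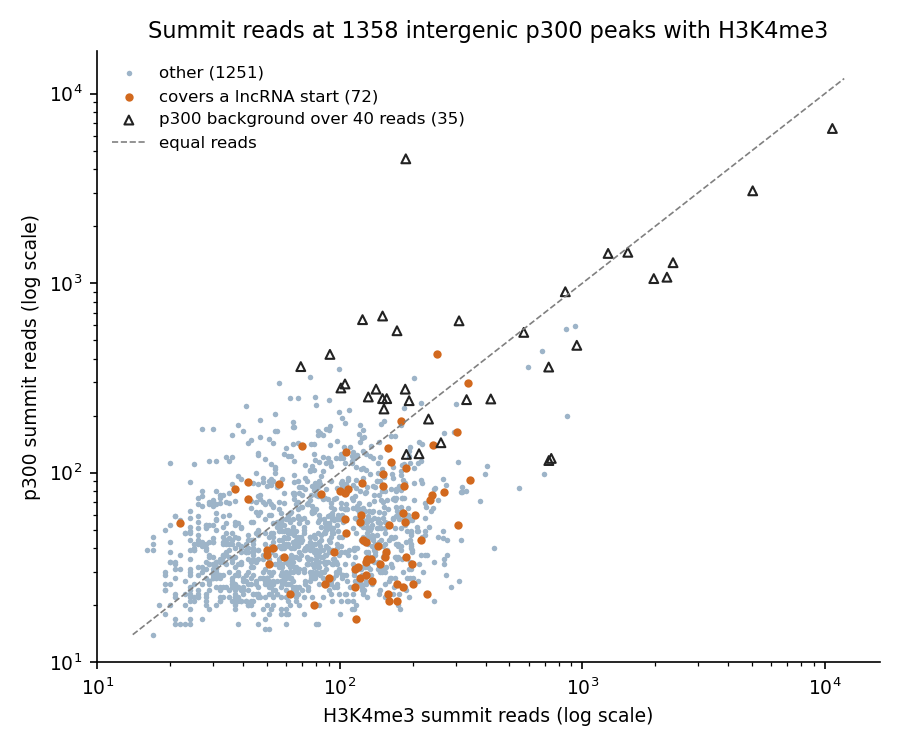
p300 summit reads (y axis, log scale) against H3K4me3 summit reads (x axis, log scale) for each of the 1358 members, with 35 whose p300 background exceeded 40 reads as triangles, 72 of the others that cover a lncRNA start in orange and the remaining 1251 in blue. The dashed line is equal reads, and 357 members lie above it.

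The shape of the peaks followed. p300 peaks of the members had a median width of 698 bp (679 to 720), against 628 at gene ends, 661 inside genes and 533 without H3K4me3. The H3K4me3 peaks beneath were narrower than at gene ends, with a median of 880.5 bp against 1310, and close to the 928 bp inside genes. The 2 summits were 131.5 bp apart (121 to 140), against 173 bp at gene ends and 143 inside genes. At 1266 members (93.2%) the p300 summit itself fell inside the H3K4me3 peak. It did so at 96.3% of gene-end peaks and 93.6% of those inside genes that overlapped H3K4me3. Over all p300 peaks, with or without overlap, the share was 80.9%. Wholly inside H3K4me3 lay 627 members (46.2%), against 75.2% of gene-end peaks and 49.7% of those inside genes. More than 1 H3K4me3 peak was touched by 40 members (2.95%), beside 3.19% at gene ends and 2.74% inside genes.

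Among intergenic H3K4me3 peaks, p300 went with those of more reads and greater width. Of 6477 H3K4me3 peaks lying more than 1 kb outside genes, 1381 (21.3%) overlapped p300. The 1387 H3K4me3 peaks under members, a few of which reach closer to a gene, had a median of 77 reads and 859 bp. The 5096 without p300 had 45 reads and 570 bp. The median folds over background were close, at 6.46 under members and 6.24 without p300. Of the intergenic p300 peaks, 76.4% (74.4 to 78.4) overlapped H3K4me3, beside 85.5% of all p300 peaks, and 27.3% of all p300 peaks were intergenic. These shares follow from the rule and from how deeply each list was called, and are given only to place the members.

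At the edge of the distance rule, the nearest members inside it lay 1014 bp from Fxyd3 (26 p300 reads), 1017 bp from Lrrc75b (64) and 1042 bp from Cabp2 (42). Just outside it were peaks 997 bp from Irx5 (61 reads), 981 bp from Bmpr2 (41) and 972 bp from F3 (39). At the edge of the overlap rule, the member near Eapp shared 9 bp with H3K4me3, that near Wdr5 31 bp and that near Abcd3 34 bp. The closest peaks that missed it lay 3 bp (near Kcnj5), 23 bp (near Eps8l2) and 46 bp (near Tpt1) from an H3K4me3 peak, with 17, 29 and 45 p300 reads. The values on both sides of each limit were of the same order.

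Members lay at all distances from genes, with a median of 22310 bp. There were 197 (14.5%) at 1 to 5 kb, 438 (32.3%) at 5 to 20 kb, 339 (25%) at 20 to 50 kb, 185 (13.6%) at 50 to 100 kb and 199 (14.7%) beyond 100 kb. Intergenic p300 peaks without H3K4me3 lay beyond 100 kb more often, in 23.9% (19.9 to 28.2), an interval that does not reach that of members (12.8 to 16.6), and at 20 to 50 kb less often, in 18.1%. The 197 members nearest to genes had a median of 104 H3K4me3 reads and the 384 beyond 50 kb had 64, whereas their p300 medians were 45 and 43. H3K4me3 summit reads at members were therefore lower far from genes, and p300 reads hardly moved. The median fold over background was instead higher far from genes. It was 5.22 near and 7.02 far for H3K4me3, and 5.07 and 6.43 for p300.

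**Figure D3:**
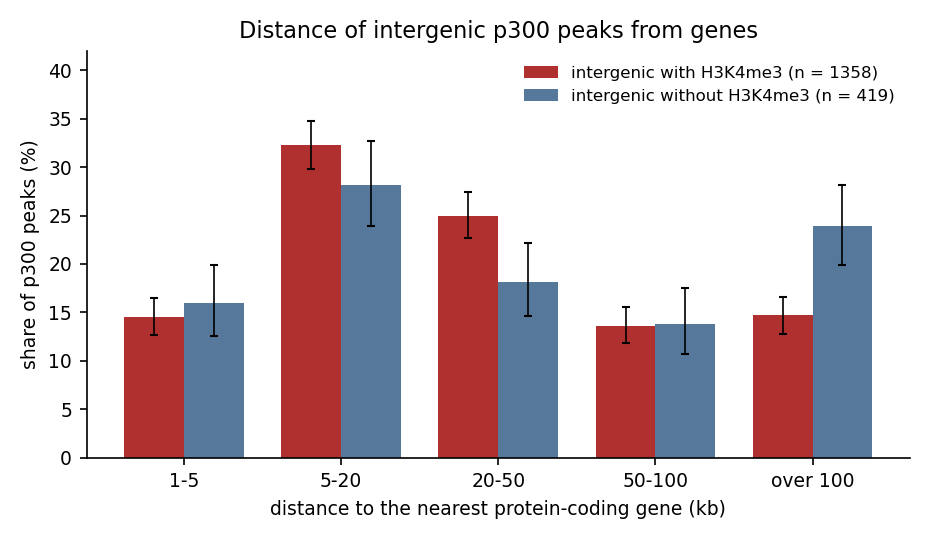
Share of intergenic p300 peaks (y axis, %) by distance to the nearest protein-coding gene (x axis, kb), for 1358 peaks with H3K4me3 in red and 419 without in blue, with exact 95% binomial intervals as error bars. Beyond 100 kb the share was 14.7% with H3K4me3 and 23.9% without.

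The most distant members were modest in size apart from those near Lrrc4c. The farthest, on chromosome 2 at 46666343 to 46666763, lay 1548900 bp from Zeb2, a transcription factor of neural crest and melanocytes, and had 20 p300 and 43 H3K4me3 reads. A further member 1326025 bp from Zeb2 had 21 and 61 reads and lay within 1 kb of the lncRNA Gm13470. The member 1482890 bp from Epha7, an ephrin receptor, had 45 and 30 reads, and was the only one of these 3 with a ratio of p300 to H3K4me3 reads above the members' median of 0.613.

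Genes next to members were more often marked at their own ends than genes at large. Members had 1063 different nearest protein-coding genes, of which H3K4me3 marked an end in 67.4% (64.4 to 70.2) and p300 in 22.8% (20.3 to 25.4). Among all 21887 genes the shares were 50.5% and 13.5%, and among the 393 nearest genes of intergenic p300 peaks without H3K4me3 they were 59.8% (54.8 to 64.7) and 19.8% (16 to 24.1). Both of these intervals overlap those of members, that for H3K4me3 only narrowly, and the difference from the members' nearest genes was not tested.

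A noncoding gene stood within 1 kb of 465 members, 34.2% (31.7 to 36.8), beside 18.9% of all p300 peaks and 24.1% (20.1 to 28.5) of intergenic p300 peaks without H3K4me3. The comparison with all p300 peaks is set partly by position, since only 17.9% of gene-end peaks and 10.7% of peaks inside genes had one. In all, 497 noncoding genes lay within 1 kb of a member, which is 1.77% of the 28056 in the annotation. By type, 390 members (28.7%, beside 15.8% of all p300 peaks) were near a lncRNA and 25 (1.84%, beside 0.829%) near a pseudogene. A tRNA gene was near 24 (1.77%, beside 0.66%) and an rRNA gene near 13 (0.957%, beside 0.2%). Small nuclear RNA genes were near 12 (0.884%, beside 0.691%) and small nucleolar RNA genes near 7 (0.515%, beside 0.261%). All 13 p300 peaks near an rRNA gene, and 24 of 43 near a tRNA gene, were members, beside 20.9% of all p300 peaks. Small nuclear RNA genes were near 12 of 1358 members and 11 of 419 intergenic p300 peaks without H3K4me3, a smaller share at members.

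A p300 peak covered the annotated start of a lncRNA at 73 members, 5.38% (4.24 to 6.71), beside 3.82% of all p300 peaks. The share was 5.99% (5.07 to 7.02) of gene-end peaks with H3K4me3 and 1.19% (0.389 to 2.76) of intergenic peaks without it. Only the starts of the 9533 lncRNA promoter windows were counted, so these shares are lower limits. The share at members was not above that at gene ends. Those 73 had a median of 134 H3K4me3 reads (121 to 158) and a ratio of p300 to H3K4me3 reads of 0.336 (0.294 to 0.543). The 893 members with no noncoding gene nearby had 70 reads (65 to 76) and a ratio of 0.663 (0.632 to 0.719). p300 itself was alike, with medians of 48 (37 to 61) and 45 (43 to 48) reads. In median H3K4me3 reads, members on lncRNA starts thus lay between the 1285 other members (75 reads) and gene ends (168). The scatter of p300 against H3K4me3 reads marks these starts among members and holds no gene-end peaks.

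Of 50 well known noncoding RNAs listed, 47 were in the annotation and 8 had a member within 1 kb, beside 1.77% of all noncoding genes. Snhg15, a host gene of small nucleolar RNA, had a member over its start with 55 p300 and 186 H3K4me3 reads and a second within the gene with 47 and 142 reads. Snhg17 had 1 over its start with 21 and 172 reads, the lowest p300 value of the 8 genes. Neat1, the scaffold RNA of nuclear paraspeckles, had the member with the highest background of this set: 276 p300 reads over an expected 86.0, and 141 H3K4me3 reads, in a peak of 3432 bp just beyond the upper end of the gene. Airn, an imprinted antisense transcript, had a member within the gene, 20909 bp from Igf2r, with 59 and 67 reads.

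**Figure D4:**
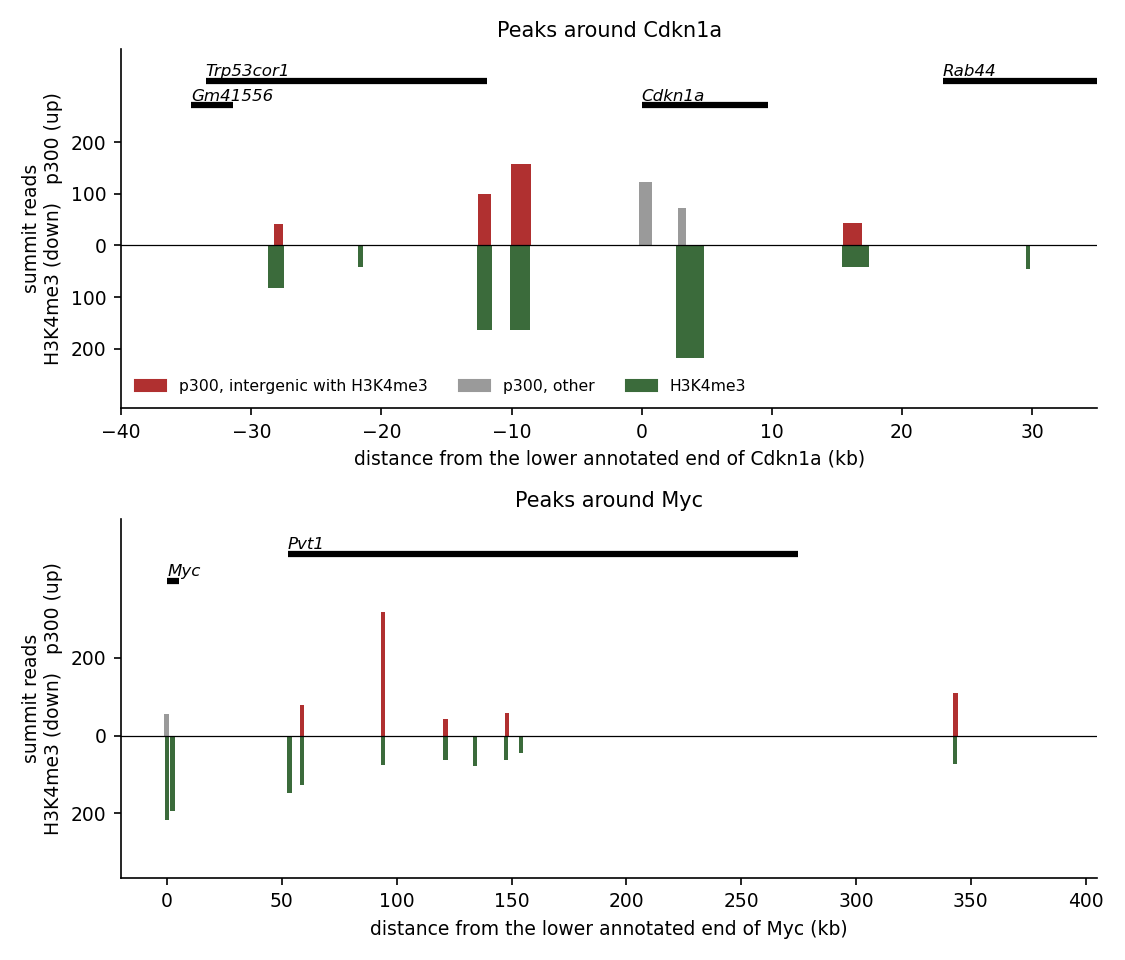
Peaks around Cdkn1a (top) and Myc (bottom), with distance from the lower annotated end of the gene in kb on the x axis and summit reads on the y axis, p300 upward (members red, other p300 peaks grey) and H3K4me3 downward (green); black lines are genes. There are 4 members around Cdkn1a and 5 beyond Myc, 4 of these within Pvt1, and the highest p300 bar near Myc has 318 reads.

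Trp53cor1, also called lincRNA-p21 and induced by p53, lies next to Cdkn1a, the gene of p21, an inhibitor of cyclin-dependent kinases. There were 4 members around Cdkn1a, at −28.3, −12.6, −10.1 and 15.5 kb from its lower annotated end, with 41, 99, 157 and 44 p300 reads and 83, 164, 163 and 42 H3K4me3 reads. The member at −12.6 kb covered the upper annotated end of Trp53cor1, and the one at −28.3 kb lay within it. The p300 peak at the Cdkn1a end itself had 123 reads, so the member at −10.1 kb was the highest p300 peak of the window drawn. No H3K4me3 peak touched that end; the nearest began 2.7 kb inside the gene and had 217 reads.

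Pvt1, a lncRNA downstream of the Myc oncogene, held 4 members, with 78, 318, 43 and 57 p300 reads and 127, 75, 64 and 64 H3K4me3 reads in order of distance from Myc. One more, 343.0 kb from the same end of Myc, had 110 and 72 reads. The member of 318 reads, on chromosome 15 at 62078804 to 62080177, had a fold of 9.73 over background and was among the 10 highest at noncoding genes. At the Myc end itself p300 had 55 reads and H3K4me3 218, less p300 relative to H3K4me3 than at that member. A further 6 members had Gsdmc as nearest gene, with 57 to 146 p300 reads, and were named after their values were seen.

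Lncpint, a lncRNA known as a p53 target, had a member of 111 p300 and 183 H3K4me3 reads within the gene near its upper end. That member was the first of 10 whose nearest protein-coding gene was Mkln1, the largest number for any gene, and 7 of the 10 were within 1 kb of the lncRNA 2210408F21Rik. The Mkln1 neighbourhood was chosen after its values were seen. Its members had 51 to 363 p300 reads and 24 to 304 H3K4me3 reads. The 3 highest ratios of p300 to H3K4me3 stood at neighbouring members, with 363 against 69 reads, 78 against 35 and 58 against 24.

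The chains of nearby members were few. Members no more than 10 kb apart formed 87 pairs and 13 longer chains that together held 224 members (16.5%). When any p300 peak was counted as a neighbour, 338 members (24.9%, 22.6 to 27.3) had one within 10 kb, beside 19.2% of all p300 peaks. The 2 longest chains had 6 members each and lay in the 5S rRNA gene array of chromosome 8, at 123567140 to 123579504 and 123592907 to 123621982, with Gas8 and Rhou as nearest genes. The next, of 5 members, lay on chromosome 6 at 47739658 to 47763566 near Gm40363, with p300 folds of at most 2.91.

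The 5S array held 13 members in all, each with 37 to 49 p300 reads and over H3K4me3 peaks of 196 to 265 reads. Its genes are near-identical copies, and reads placed on 1 copy may belong to another. The 13 p300 peaks shared a few wide H3K4me3 peaks, so their H3K4me3 values are not separate measurements. At tRNA genes, 24 members on 13 chromosomes, named here after their values were seen, had 22 to 72 p300 reads (median 34.5) and 68 to 268 H3K4me3 reads (median 153.5). Both gene types are transcribed by RNA polymerase III. The tRNA medians stood near the gene-end medians of 37 and 168 reads, while every 5S member lay above 168 in H3K4me3. Rn7sk, whose RNA restrains the elongation factor P-TEFb, Rny1, a Y RNA, and Rn7s2, a signal recognition particle RNA, had members with 29, 36 and 54 p300 reads and 128, 150 and 187 H3K4me3 reads.

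The strongest members were strong in both lists, and several stood on high local background. Of the 20 p300 peaks with the highest −log10 q in the whole list, 15 were members. The first 3 of the p300 list were also the first 3 of the H3K4me3 list. The first, on chromosome 2 at 98666289 to 98667313 and 1034616 bp from Lrrc4c, had 6544 p300 reads over an expected 477 and 10728 H3K4me3 reads over 590. The second, on chromosome 14 at 19415728 to 19419352, had 3070 and 5035 reads. The third, on chromosome 9 at 35305222 to 35305589 over the lncRNA Gm33838, had 1075 and 2231 reads.

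In these peaks the 2 lists gave nearly the same boundaries. The p300 and H3K4me3 widths were 1025 and 1026 bp at the first, 3625 and 3639 bp at the second and 368 and 370 bp at the third, with summits 2 bp apart or less. The member near Fgf14 had widths of 679 and 679 bp with 597 and 929 reads, and that near Mrgprd 519 and 519 bp with 573 and 857 reads. The same held near Zfp825, over the pseudogene Gm20590 (2200 and 2239 bp, 901 and 850 reads), and near Tcte2, over the lncRNA 2700054A10Rik (2437 and 2532 bp, 1435 and 1276 reads). The members near Alkbh8, on the first few megabases of chromosome 9, were wide as well, at 15566, 9690 and 6695 bp over H3K4me3 peaks of 16644, 10074 and 7846 bp. The first 2 of these were the widest of all members, followed by one of 6942 bp near 9230019H11Rik over an H3K4me3 peak of 7276 bp. How much of the signal at these places came from reads that fit several copies of a sequence was not tested.

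The member near Col19a1 differed from these. On chromosome 1 at 24611736 to 24616082, over the pseudogenes Gm10222 and Gm10925, it had 4527 p300 reads over an expected 1705.7, a fold of 2.65, and 187 H3K4me3 reads, which ranked 9964th in the H3K4me3 list. It had the highest p300 background of all members. The mitochondrial chromosome had p300 backgrounds of up to 3213.2 reads and H3K4me3 backgrounds of up to 161.3. A p300 background over 40 reads occurred at 35 members (2.58%, 1.8 to 3.57), beside 0.998% of all p300 peaks, and its part in the highest values was not tested. Without these peaks 1323 members remained, with no other change to a median or share beyond its interval.

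Other strong members stood over lncRNAs or within 1 kb of one. Among the 10 highest at noncoding genes were the members near Itpr2 over Gm32838 (642 p300 and 124 H3K4me3 reads over a p300 background of 72.7), near Mef2d over 1700113A16Rik (421 and 251, over 36.1), near Tmem125 over Gm40237 (299 and 339, over 18.5) and near Igsf3, within 1 kb of Gm40109 (352 and 99, over 39.6). The Tmem125 member covered the start built of repeats printed above, and again had nearly equal widths of 1464 and 1483 bp. All 4 had a ratio of p300 to H3K4me3 reads above the members' median of 0.613, but they were named for a high p300 −log10 q, which favours a high ratio. Of all members, 214 (15.8%, 13.9 to 17.8) were in the top 10% of the p300 list by −log10 q, against 12.3% (10.8 to 13.9) of peaks inside genes, 6.66% of gene-end peaks and 5.01% of intergenic peaks without H3K4me3.

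By gene list, members were near pigment cell, immediate early and MAPK feedback genes more often than near genes at large. Over all 21887 protein-coding genes, 8.87% had a member within 50 kb of an end. The share was 36% (9 of 25, exact interval 18 to 57.5) for pigment cell genes, 35% (7 of 20, 15.4 to 59.2) for immediate early and AP-1 genes, 37.5% (6 of 16, 15.2 to 64.6) for MAPK feedback genes and effectors and 23.3% (7 of 30, 9.93 to 42.3) for p53 targets. Within 20 kb, 4.08% of all genes had one, and 24%, 25%, 25% and 16.7% of these 4 lists. Within 100 kb the shares were 14.8% of all genes and 40%, 35%, 43.8% and 36.7% of the lists. The lists were chosen with results of these data known, and nearness within 50 kb does not assign a member to a gene.

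**Figure D5:**
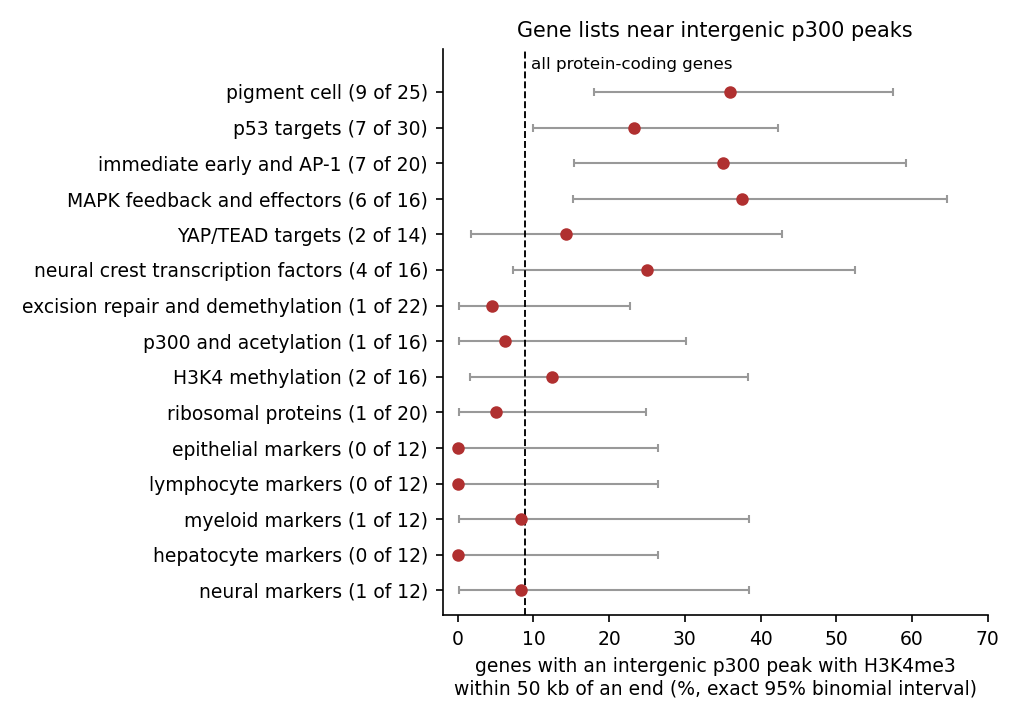
Share of the genes of each list with a member within 50 kb of an end (x axis, %), with exact 95% binomial intervals as bars and counts in the row names. The dashed line is the share of all protein-coding genes, 8.87%; the pigment cell list stood at 36%, and the epithelial, lymphocyte and hepatocyte lists at 0%.

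Among pigment cell genes the strongest member was at Gpnmb, which encodes a melanosome glycoprotein. It lay 7445 bp from the gene and had 561 p300 reads over an expected 62.6, with 172 H3K4me3 reads, and a second member had 57 and 93. Sox10, a transcription factor that drives melanocyte genes, had 3 members, all within 1 kb of the lncRNA Gm10863. They had 246, 126 and 46 p300 reads and 156, 212 and 169 H3K4me3 reads, and only the first had a ratio above the members' median. They lay 43760, 48174 and 10955 bp from Sox10, and those of 246 and 126 reads had Pick1 as nearest gene. Pax3, a transcription factor upstream of Mitf, had 3 members 31657 to 42658 bp from the gene. They had 148, 69 and 35 p300 reads against 43, 32 and 24 H3K4me3 reads, and each ratio was above the members' median. Genes of a list were named by the highest p300 −log10 q of a member, which favours high ratios. Mlph, a linker that tethers melanosomes to myosin, had 2 members with 120 and 76 p300 reads and 137 and 80 H3K4me3 reads. These lay 23209 and 20152 bp from Mlph, and Rab17 was the nearest gene of both.

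The other 5 pigment cell genes were named after their values were seen. Tyrp1, a melanin synthesis enzyme, had a member 14015 bp away with 60 p300 and 35 H3K4me3 reads. Dct, another melanin enzyme, had one 4568 bp away with 126 and 78 reads. Both ratios were above the members' median. Mc1r, the melanocortin receptor, had 2 with 80 and 79 p300 reads and 331 and 319 H3K4me3 reads, and both were also counted for its neighbour Tubb3. Their nearest genes were Def8 and Tubb3, and both ratios were below the members' median. Met, a receptor kinase, had 3 with 45 to 83 p300 reads, and Ednrb, the endothelin receptor of the melanocyte lineage, had 1 with 23 and 62 reads.

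Among p53 targets, Mdm2, which encodes the ligase that degrades p53, had a member 6588 bp away with 167 p300 and 40 H3K4me3 reads. That ratio was above the members' median, but the gene was named for its p300 −log10 q, which favours a high ratio. Cdkn1a had the 4 described above, the most distant of which had Srsf3 as nearest gene. Bbc3, the gene of the apoptosis inducer PUMA, had a member of 2360 bp, 10981 bp away, with 87 and 103 reads. Its nearest gene was Ccdc9, at 8249 bp. Sesn2, a stress-induced inhibitor of mTORC1 signalling, had 2 with 52 and 50 p300 reads and 84 and 93 H3K4me3 reads, 1 of them at a tRNA gene. Sfn, Phlda3 and Btg2 made up the 7, with 29, 48 and 29 p300 reads. Their members had Pigv, Tnni1 and Chit1 as nearest genes, in that order.

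Among immediate early genes, Ier3, an early response gene of growth factor signalling, had a member of 154 p300 and 126 H3K4me3 reads 7721 bp away. Nr4a3, an orphan nuclear receptor, had one 1466 bp away with 94 and 108 reads. Atf3, a stress-induced transcription factor, had 2, each with 60 p300 reads but with 52 and 204 H3K4me3 reads, and only the second was near a lncRNA, D730003I15Rik. Fos, an AP-1 subunit, had 1 at 18072 bp with 49 and 209 reads, near Gm38543. Klf6, Fosl1 and Ier2 had 27 to 36 p300 reads, and the Fosl1 member had Tsga10ip as nearest gene.

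Among MAPK feedback genes, 3 dual-specificity phosphatases, which remove phosphate from MAP kinases, had members. Dusp4 had 1 at 2040 bp with 121 p300 and 147 H3K4me3 reads, Dusp5 had 1 at 37548 bp with 59 and 21, and Dusp6 had 2, about 16 kb on either side of the gene, with 39 and 40 p300 reads and 83 and 53 H3K4me3 reads. Phlda1 had 3 with 69, 36 and 52 p300 reads and 101, 66 and 125 H3K4me3 reads. Of these 7 members the one at Dusp5 had the highest ratio of p300 to H3K4me3 reads. Ccnd1, encoding cyclin D1, and Spred1, an inhibitor of RAS signalling, had 1 member each, with 58 and 27 p300 reads.

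Each of the remaining lists had at most 4 genes with a member within 50 kb. Of 16 neural crest transcription factors 4 had a member within 50 kb (25%, 7.27 to 52.4), of which Id2, an inhibitor of basic helix-loop-helix factors, had the strongest, with 246 p300 and 150 H3K4me3 reads 2209 bp away. The others were Zeb1 with 95 and 152 reads, Id3 with 79 and 107, and Id1 with 30 and 114. Of 14 YAP and TEAD genes, Amotl1 (143 and 53 reads, with Cwc15 as nearest gene) and Tead4 (44 and 317) had one. Their ratios of p300 to H3K4me3 reads lay on opposite sides of the members' median.

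Lists of housekeeping, repair and chromatin genes had intervals that held the background of 8.87%. One of 22 excision repair and DNA demethylation genes had a member, Dnmt3b, a DNA methyltransferase (52 p300 and 55 H3K4me3 reads at the stronger of 2). One of 16 acetylation genes, Brd3, and 2 of 16 H3K4 methylation genes (12.5%), Wdr5 and Kmt2c, had one. The member of Brd3 was 1 of the 2 of Wdr5, and that of Kmt2c had Cct8l1 as nearest gene. Of 20 ribosomal protein genes, 1 had one (5%, 0.127 to 24.9). For markers of other cell types, 0 of 12 epithelial, 0 of 12 lymphocyte and 0 of 12 hepatocyte genes had one, each with an upper limit of 26.5%, and 1 of 12 myeloid genes (Fcgr1) and 1 of 12 neural genes (Tubb3) did.

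Members were spread unevenly over chromosomes. Chromosome 11 had the most per length, with 9.52 per 10 Mb up to its last annotated gene, followed by chromosome 6 with 8.42 and chromosome 17 with 7.17. The X chromosome had 13 members, 0.762 per 10 Mb, and Y had 2. As a share of each chromosome's p300 peaks, members ranged from 15.8% on chromosome 5 to 27.4% on chromosome 13 among autosomes and were 20.3% on X, so X was low in p300 peaks at large rather than in members alone.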

How the data were processed

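CUT&Tag reads of wild type B16 cells were processed by the authors. Per the submitters' processing notes reads were handled on mm10 with Bowtie2 2.2.5, Picard 2.22.4, Trim Galore and deepTools, in no given order. The peak caller used, with its control and any pooling, was not given in the sources used here. Each deposited peak list holds a display score, a fold (ratio) over background at the summit, −log10 p and −log10 q (adjusted p). Summit reads k and background b were solved from the deposited fold, taken as (k + 1)/(b + 1), and −log10 p, taken as a Poisson tail above k. All 591 of 591 peaks simulated with this same formula were recovered, which checks the solving and not the formula. The simulated reads and backgrounds were below those of the strongest members. The lowest deposited −log10 q was 5.11 for p300 and 5.04 for H3K4me3. Background reads were at least 1.84 and 2.68, and library totals are unknown.

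Overlaps, distances and intervals were computed with Python 3.11.15, numpy 2.4.6, pandas 2.3.3 and scipy 1.17.1. Coordinates are 1-based. RefSeq gene spans, promoter windows and microRNAs were those of GRCm38; all 255 symbols of 15 gene lists matched. Shares have exact (Clopper-Pearson) 95% intervals and medians order-statistic intervals. Both treat peaks as independent, which near-identical copies and peaks under 1 H3K4me3 peak are not. No test was run across peaks, since 1 library per antibody gives no replicates. Members and gene lists were chosen with earlier results of these data known. Named members were the 10 of highest p300 −log10 q, the 10 of highest H3K4me3 −log10 q, the 5 widest, the 5 farthest from a gene, the 3 longest chains and the 10 strongest at noncoding genes. Named genes were up to 4 per list with the strongest member, and those of the noncoding list; others, including small RNA genes and the neighbours of Myc and Mkln1, were named after their values were seen. Alternatives changed the overlap, distance, fold, −log10 q, gene set, chain gap and list window. The H3K9me3 libraries were not analysed here.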

Additional observations from a re-analysis of the deposited data

Results flagged for a closer look

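Peaks outside chromosomes 1 to 19, X and Y were kept out of the members. Of 17 such p300 peaks, 13 overlapped an H3K4me3 peak, and 10 of these 13 were not on the mitochondrial chromosome. It is listed because it is signal in data that the comparisons did not use. No control library was used here to set it against.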

How the results depend on the processing

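Of 91 values recomputed under 16 settings, 70 stayed inside the interval of the reported value (for counts, within 1.5 times it) and 21 did not. The share of intergenic p300 peaks with H3K4me3 became 71.2% with the summit inside H3K4me3, 68.7% with 50% overlap, 66.1% with a fold of at least 5 in both lists (861 members) and 73.7% when genes of any type were avoided (893 members). The median H3K4me3 reads at members became 82 with 50% overlap, 73 beyond 5 kb from genes and 68 with the fold limit. The share near a noncoding gene was 44.1% within 5 kb and 29.2% for overlap alone. Members in chains were 7.95% with a gap of 5 kb and 27.2% with 25 kb. Among all genes, 14.8% had a member within 100 kb and 4.08% within 20 kb, and 11 p53 targets had one within 100 kb. Under −log10 q of at least 10 in both lists, chosen after seeing the data, median p300 reads were 51 at members and 41.5 at gene ends, H3K4me3 reads 82 and 172, and 7.18% of all genes had a member within 50 kb. The planned limit of 5 on −log10 q removed no peak. No paired analysis was possible because each antibody had 1 library, and for the same reason no replicate could be left out. Depth sets which weak peaks were listed, so a p300 peak without H3K4me3 had none listed at this depth, which does not show that the mark was absent.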
